A study of Mus musculus with 13 samples.

Results

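Intronic ESR1 peaks are sites of estrogen receptor alpha (ESR1) on DNA that lie inside a gene, between its exons and away from any promoter. In each of 12 peak lists a peak was counted as intronic when its summit, the base of highest signal, lay over 3 kb from every transcription start site (TSS), inside a gene and in no exon. Of 686823 peaks, 223600 (32.6%) met this rule. Promoter peaks made up 35.4%, intergenic peaks 28.7% and exonic peaks 3.35%. By comparison, 35.4% of the bases of the assembled chromosomes were intronic and 11.9% lay within 3 kb of a TSS.

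ESR1 was profiled by ChIP-Seq, in which DNA recovered with an antibody to the receptor is sequenced, in primary fibroblasts grown out of LAM, the muscle of the lower abdomen, of Aromhum animals. Their genome holds the human aromatase gene, CYP19A1, with its own promoter regions on a bacterial artificial chromosome in the FVB/N strain, and aromatase turns androgens into estrogens. All libraries came from this genotype, so no wild-type cells were compared, and all cultures were kept in serum-free medium. Cultures received only solvents (vehicle: ethanol and DMSO), estradiol (E2) at 10 nM, fulvestrant at 100 nM, or both agents at these doses (E2 plus fulvestrant). By the study's methods, fulvestrant or DMSO was added 3 hr before E2 or ethanol. Cultures were harvested 1 hr after E2 or its solvent. Fulvestrant is an antagonist of ESR1 and promotes its breakdown. Each of the 4 treatments had 3 libraries. The labels name the cells skeletal muscle fibroblasts and give neither age nor sex. The study states that its mice were male, and describes the cells as hernia-associated fibroblasts (HAFs) separated by preplating. An input sample was not analysed here. The labels do not say whether the 3 libraries came from separate animals or cultures, so p-values measure only the spread between these samples, which may be technical. ChIP-Seq of a culture also cannot tell fewer cells with bound receptor from less bound receptor per cell.

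ESR1 is a nuclear receptor that binds E2, dimerizes and attaches to DNA either directly, at a palindrome called the estrogen response element (ERE), or through other factors such as AP-1, the dimer of Fos and Jun proteins. Much of its binding lies far from promoters, in introns and between genes, where bound receptor recruits coactivators to enhancers that may act on the host gene or on another gene nearby. The gene that holds an intronic peak is therefore called its host here, with no statement on which gene is regulated.

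Values of 2 libraries stood apart from the other 10. A relative depth recovered from each list was 39.1% of the median library in E2 replicate 1 and 75.8% in fulvestrant replicate 2, and 92.0% to 106% in the other 10. Of the intronic peaks of E2 replicate 1, 63.1% had summits in repeat-masked sequence, against 29.6% in fulvestrant replicate 2 and 6.404% to 9.38% in the other 10. Most counts and per-library measures that rest on either library are given with and without it. Fold enrichment of regions named from the fit without both is given for the other 10 only.

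The ERE searched was GGTCANNNTGACC with at most 1 mismatch, and the AP-1 site was TGANTCA with none, both on either strand within 100 bp of the summit. The following 11 stretches carry the results below and show what such a site looks like in its intron. They are from the GRCm38 (mm10) reference, plus strand, 5′ to 3′, with the ERE in capitals and 40 bases on each side. Cgnl1 and Uroc1 held regions among the strongest found in all 12 libraries. Greb1, Prrx1, Kif26b, Pgr, Lnx2, Adamts2, Fbn1 and Dkk3 held regions that were stronger in libraries given E2, and Sybu held a region weaker with E2 than with E2 plus fulvestrant. The first 5 are exact matches and the last 6 have 1 mismatch.
Cgnl1 chr9:71757535-71757627: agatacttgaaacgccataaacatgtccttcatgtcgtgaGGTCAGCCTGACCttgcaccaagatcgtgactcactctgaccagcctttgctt
Uroc1 chr6:90355793-90355885: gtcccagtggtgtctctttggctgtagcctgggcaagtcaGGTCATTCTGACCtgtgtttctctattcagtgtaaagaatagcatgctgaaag
Greb1 chr12:16760491-16760583: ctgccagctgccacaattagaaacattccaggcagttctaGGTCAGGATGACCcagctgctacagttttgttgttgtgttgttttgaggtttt
Prrx1 chr1:163285335-163285427: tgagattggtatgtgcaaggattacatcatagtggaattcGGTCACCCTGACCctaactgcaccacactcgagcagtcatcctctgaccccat
Kif26b chr1:178641050-178641142: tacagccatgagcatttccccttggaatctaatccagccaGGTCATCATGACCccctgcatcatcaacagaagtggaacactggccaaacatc
Pgr chr9:8937809-8937901: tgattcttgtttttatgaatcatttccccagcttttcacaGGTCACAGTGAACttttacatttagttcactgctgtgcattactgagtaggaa
Lnx2 chr5:147036925-147037017: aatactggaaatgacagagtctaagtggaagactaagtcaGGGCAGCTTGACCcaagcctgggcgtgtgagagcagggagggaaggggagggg
Adamts2 chr11:50696284-50696376: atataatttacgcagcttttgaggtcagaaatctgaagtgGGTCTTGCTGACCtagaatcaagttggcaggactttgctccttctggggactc
Fbn1 chr2:125368790-125368882: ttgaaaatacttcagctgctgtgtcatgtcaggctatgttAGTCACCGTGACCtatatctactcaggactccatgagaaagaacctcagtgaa
Dkk3 chr7:112138391-112138483: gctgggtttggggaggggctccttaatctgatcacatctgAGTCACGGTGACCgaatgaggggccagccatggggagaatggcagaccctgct
Sybu chr15:44699304-44699396: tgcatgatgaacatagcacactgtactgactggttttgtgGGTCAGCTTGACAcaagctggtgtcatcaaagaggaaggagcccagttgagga
In the Dkk3 stretch the ERE overlaps an AP-1 site, TGAGTCA, so the same bases were counted for both motifs. In the Cgnl1 stretch an AP-1 site, TGACTCA, follows the ERE downstream. The Pgr stretch also holds a match to the AP-1 rule, TGAATCA, ahead of its ERE.

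The first question was how many intronic peaks each treatment had. Vehicle libraries held 17032, 10118 and 12630 intronic peaks in replicates 1, 2 and 3, and E2 libraries held 30308, 21005 and 25094. With E2 plus fulvestrant there were 12654, 16880 and 24170, and with fulvestrant 12937, 26093 and 14679. All 3 E2 libraries had more intronic peaks than all 3 vehicle libraries, whereas the other treatments overlapped with both. The mean was 25469 ± 4663 with E2 and 13260 ± 3500 with vehicle (SD, n = 3 each), a ratio of 1.92 (two-sided exact permutation test, p = 0.1, the smallest that 3 against 3 libraries allow, adjusted p = 0.229 over 4 comparisons). With repeat-masked peaks left out the libraries overlapped, at a difference of 5874 peaks (exact permutation p = 0.3). Pooled over fulvestrant, the mean was 21685 ± 6281 in the 6 libraries that received E2 and 15582 ± 5639 in the 6 that did not (SD), which did not exceed the spread (exact permutation p = 0.115, adjusted p = 0.229).

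As a share of the list, intronic peaks ranged from 29.0% to 36.5% over the 12 libraries. The mean share was 31.5% ± 1.88 with vehicle, 33.3% ± 3.84 with E2, 33.5% ± 2.81 with both agents and 31.6% ± 1.04 with fulvestrant (SD, n = 3 each). None of the 4 comparisons of this share exceeded the spread (exact permutation p from 0.201 to 1). Restricted to peaks whose −log10 q reached 10, the difference between libraries given and not given E2 was 10.1 points instead of 1.86 (exact permutation p = 0.00216, the smallest that 6 against 6 libraries allow). Such a cut can keep a different part of each list. The mean intronic share rose from 14.6% in the strongest 10% of a list to 40.5% in the weakest 10%. How much of the 10.1 points came from the part kept was not tested. Among the 1000 strongest peaks, E2 replicate 1 had 28 intronic peaks and the other libraries given E2 had 215 to 332. Libraries not given E2 had 23 to 117. Without E2 replicate 1, and with all peaks, the difference in share was 2.74 points. That value is given with no test, since the library left out had the lowest share of all (29.0%).

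**Figure D1:**
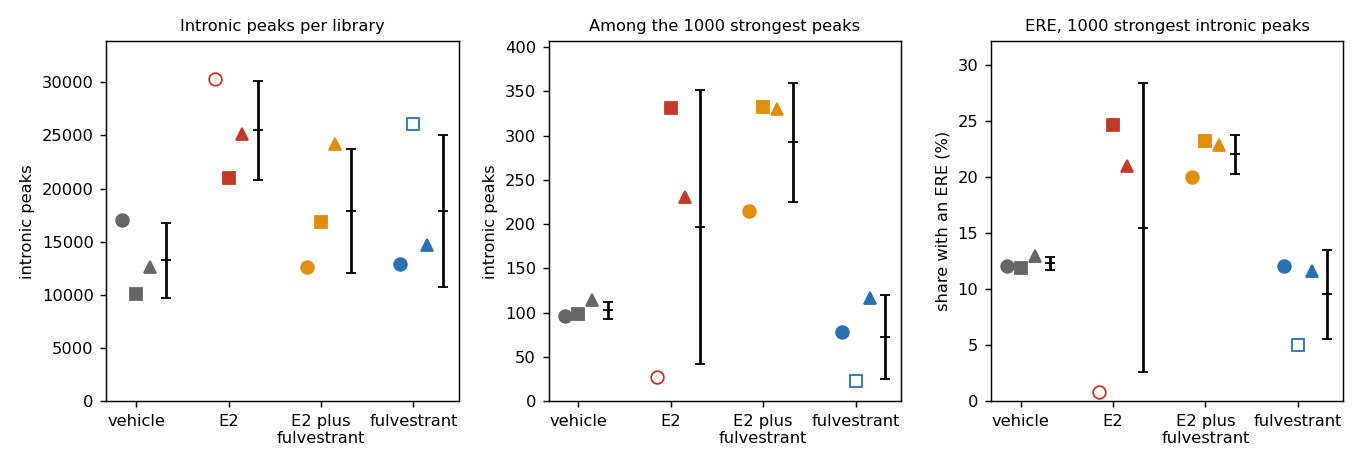
From left to right, the panels plot for each library the number of intronic peaks, the number of intronic peaks among its 1000 strongest peaks and the percent of its 1000 strongest intronic peaks with an ERE, by treatment. Circles, squares and triangles are replicates 1, 2 and 3, open markers are E2 replicate 1 and fulvestrant replicate 2, and black bars are the mean ± SD of 3 libraries; E2 replicate 1 was highest in number (30308) and lowest in ERE share (0.8%).

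The position of intronic peaks in their hosts varied within a narrow range between libraries. The median distance from an intronic summit to the nearest TSS was 15.7 to 19.2 kb. On average 30.2% of intronic summits lay 3 to 10 kb from a TSS, 37.4% lay 10 to 30 kb, 27.1% lay 30 to 100 kb and 5.24% lay farther away. Between 26.7% and 30.6% were in the first intron of the host, and 85.7% to 90.5% had a protein-coding host. Where genes overlapped, a protein-coding gene was taken as host before any other. A library had intronic peaks in 3448 to 9199 host genes, the highest number in E2 replicate 1.

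Intronic peaks were on the whole weak within their own lists. Peaks were ranked by −log10 p within each list, and the rank was expressed as a percentile, where 0 is the strongest. The median percentile of intronic peaks was 59.2 on average over the 12 libraries, against 34.0 for promoter peaks and 55.9 for intergenic peaks. The median was higher, that is weaker, for intronic than for promoter peaks in 12 of 12 libraries (two-sided exact sign-flip permutation test over libraries, p = 0.000488, the smallest possible, adjusted p = 0.000732 over 12 tests). Against intergenic peaks it was higher in 10 of 12 (exact permutation p = 0.00391, adjusted p = 0.00469).

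Averaged over libraries, the share of peaks that were intronic was higher in each successive bin from the strongest to the weakest, although single libraries dipped between neighbouring bins and E2 replicate 1 was highest in the middle of its list (33.0%) and at 29.7% in the weakest bin. In the strongest 10% of a list it was 14.6% on average (range 5.15% to 25.2%), in the next 10% it was 21.0%, and in the weakest 10% it was 40.5% (29.7% to 44.1%). Even so, every library had an intronic peak among its 7 strongest. Vehicle libraries had 96, 99 and 114 intronic peaks among their 1000 strongest, and fulvestrant libraries had 78, 23 and 117. E2 libraries had 28, 331 and 231, and E2 plus fulvestrant libraries had 215, 332 and 330. In each of the 5 libraries given E2 other than E2 replicate 1, intronic peaks thus took more of the top 1000 than in any of the 6 not given E2.

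The median percentile of intronic peaks was 56.7 ± 2.79 with E2 and 60.8 ± 0.979 with vehicle (SD, n = 3 each), and all 3 E2 libraries lay below all 3 vehicle libraries (exact permutation p = 0.1, adjusted p = 0.2). Restricted to peaks whose −log10 q reached 10, it changed sign, from −4.12 to 2.34 points (exact permutation p = 0.7). The other comparisons of this measure did not exceed the spread, with the largest for libraries given against not given E2, at −2.60 points (exact permutation p = 0.0628, adjusted p = 0.2).

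**Figure D2:**
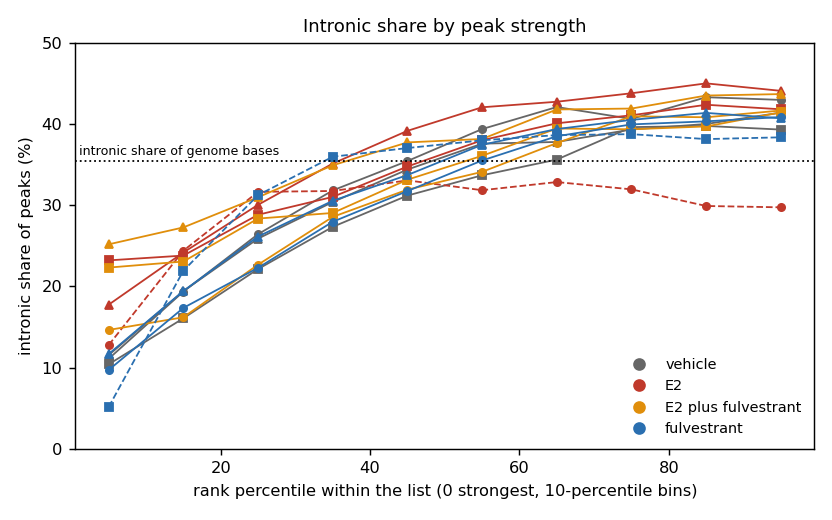
The percent of peaks that were intronic (vertical axis) is plotted against position in the list in bins of 10% by strength (horizontal axis, strongest at the left), with 1 line per library, coloured by treatment and dashed for E2 replicate 1 and fulvestrant replicate 2. The share climbed from a mean of 14.6% in the strongest bin to 40.5% in the weakest, and libraries given E2 were spread from 12.8% to 25.2% at the strong end.

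Intronic peaks were also narrow. Their median width was 396, 353 and 336 bp in vehicle replicates 1, 2 and 3, and 348, 422 and 474 bp in the E2 replicates. It was 346, 360 and 397 bp with E2 plus fulvestrant and 386, 345 and 391 bp with fulvestrant. The middle 50% of widths ran from 270 to 329 bp at the lower end and from 472 to 829 bp at the upper end across libraries, and the widest intronic peak of a library spanned 5210 to 14738 bp. Averaged over the 12 libraries the median was 380 bp for intronic, 499 bp for promoter and 391 bp for intergenic peaks, with intronic peaks narrower in 12 of 12 libraries against either class (exact sign-flip permutation p = 0.000488, adjusted p = 0.000732 for each). No comparison of treatments exceeded the spread in width (exact permutation p from 0.3 to 0.8).

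EREs were more frequent at intronic summits than in control windows 2 kb upstream. An ERE lay at 2.05%, 2.49% and 2.57% of intronic summits in vehicle replicates 1, 2 and 3, at 0.729%, 3.50% and 2.81% in the E2 replicates, at 3.71%, 3.68% and 2.81% with E2 plus fulvestrant and at 2.23%, 1.1497% and 2.10% with fulvestrant. Control windows held one in 0.579% to 1.05%. The share at summits was above the control in 11 of 12 libraries, all but E2 replicate 1 (exact sign-flip permutation p = 0.000977), and it averaged 2.49% ± 0.927 against 0.674% ± 0.123 (SD, n = 12). It was higher than at promoter summits (1.21%) in 12 of 12 libraries and lower than at intergenic summits (2.77%) in 10 of 12 (exact sign-flip permutation, adjusted p = 0.000732 and 0.00639).

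AP-1 sites were at 8.57% ± 2.94 of intronic summits and in 6.14% ± 0.235 of control windows (SD, n = 12), and the share was higher at summits in 10 of 12 libraries, the exceptions being E2 replicate 1 and fulvestrant replicate 2 (exact sign-flip permutation p = 0.0151). Single libraries ranged from 2.82% to 12.1%. Promoter summits had 4.10% and intergenic summits 9.67%, with intronic summits above the first in 12 of 12 libraries and below the second in 10 of 12 (exact sign-flip permutation, adjusted p = 0.000732 and 0.00391).

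Over all libraries, those given E2 exceeded those not given it by 0.777 points in ERE share and 2.38 points in AP-1 share, both within the spread (exact permutation p = 0.160 and 0.206, adjusted p = 0.4 and 0.6). Restricted to peaks whose −log10 q reached 10, the ERE difference turned to −3.19 points (exact permutation p = 0.468). With E2 replicate 1 left out, libraries given E2 were higher by 1.21 points for the ERE and 3.77 points for AP-1, and without both libraries that stood apart by 1.02 and 3.13 points. These values are given with no test, since low shares of these same motifs are among the measures by which the left-out libraries stood apart.

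The strongest intronic peaks carried EREs far more often. Among the 1000 strongest intronic peaks an ERE lay at 12.1%, 11.9% and 13.0% of summits in the vehicle libraries and at 12.1%, 5.0% and 11.6% in the fulvestrant libraries. It lay at 0.8%, 24.7% and 21.0% in E2 replicates 1, 2 and 3 and at 20%, 23.2% and 22.9% with E2 plus fulvestrant. Control windows of these peaks had at most 0.8%. With E2 replicate 1 included, the difference between libraries given and not given E2 was 7.82 points (exact permutation p = 0.0931), since that library lay below all others and the remaining 5 above all 6 not given E2.

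Recurrence was measured by merging overlapping peaks of all libraries into regions. Of 228284 regions, 87932 (38.5%) had their strongest summit in an intron. A long region can also hold peaks of other classes, and its strength in a library is that of its strongest peak of any class. Most intronic regions were seen once, with 58778 (66.8%) in a single library, of which E2 replicate 1 alone held 20983 (35.7%). Promoter regions were in a single library in 48.0% of cases. At the other end, 781 intronic regions (0.888%) had a peak in all 12 libraries, against 13.7% of promoter regions.

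All 3 libraries of a treatment shared 3308 intronic regions with vehicle, 1961 with E2, 5543 with both agents and 2942 with fulvestrant. The 7033 intronic regions (7.998%) shared by all 3 libraries of at least 1 treatment are called recurrent below, and the matching share was 27.0% for promoter and 7.16% for intergenic regions. The percent of a library's intronic peaks found in both other libraries of its treatment was 34.6%, 54.9% and 44.2% with vehicle and 8.25%, 15.6% and 11.5% with E2. It was 65.6%, 49.3% and 33.7% with both agents and 40.01%, 18.1% and 35.9% with fulvestrant. E2 libraries lay below all vehicle and all E2 plus fulvestrant libraries (differences of −32.7 and −37.7 points, exact permutation p = 0.1 for each, again the lowest value 3 libraries a group can give, and adjusted p = 0.2). This measure asks for a peak in the 2 other libraries and is bounded by E2 replicate 1 in the E2 group.

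Recurrent intronic regions differed in their sequence from those seen once. An ERE lay at 0.800% of summits of regions in 1 library, 1.41% in 2 to 3, 3.41% in 4 to 6, 3.796% in 7 to 9, 5.63% in 10 to 11 and 8.45% in all 12. AP-1 sites followed another course, from 5.59% in 1 library to 12.2% in 7 to 9 and 7.43% in all 12. The repeat-masked share was 35.6% in regions of 1 library and 5.04% to 8.53% in regions of 4 or more. Median region length grew from 302 bp to 2825 bp, which merging by itself favours, and the median rank percentile went from 72.0 to 21.6.

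The 10 strongest intronic regions found in all 12 libraries, by mean rank percentile and 1 per host, lay in Angpt4, Mpp7, Cgnl1, Rbm20, Lsp1, Cacna1a, Lrp1, Uroc1, Pde8b and Gm29684, and 7 of the 10 had an ERE. The merged regions in Lsp1 (24628 bp) and Lrp1 (15800 bp) also contain a TSS, 4956 and 6271 bp from their summits. Promoter peaks may therefore have set their rank in some libraries. Angpt4 encodes an angiopoietin and Lrp1 a large endocytic receptor of fibroblasts. Cgnl1 encodes paracingulin, a junction protein, and its region (chromosome 9, 71756657 to 71758610, intron 1 of 17, minus strand) held an exact ERE and an AP-1 site. Fold enrichment at the Cgnl1 summit over local background was 24.9, 20.1 and 21.9 in the vehicle libraries, 19.4, 42.5 and 37.2 in the E2 libraries, 26.6, 38.4 and 39.7 with both agents and 21.2, 13.3 and 18.8 with fulvestrant. It ranked between 8 and 17 in 10 of the 12 lists, but only 2231 in the list of E2 replicate 1 and 446 in that of fulvestrant replicate 2. The region in Uroc1, the urocanase gene of histidine breakdown (chromosome 6, 90354970 to 90356532, intron 16 of 19), had an exact ERE and an AP-1 site and ranked between 7 and 24 in the same 10 lists, but 7258 in E2 replicate 1. The region in Mpp7 went the other way, with rank 1 in E2 replicate 1 and 5 in fulvestrant replicate 2, and repeats covered 88.1% of the bases around its summit.

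The next question was which genes host recurrent intronic regions. Of 23701 genes with intronic sequence under the rule, 3022 (12.8%) held at least 1 of the 7033 regions, and 75 held 10 or more. The share of hosts went with intron length. Among protein-coding genes, 3.52% of those with under 10 kb of such sequence were hosts and 52.1% of those with over 300 kb. Per 100 kb of intron, protein-coding genes held 0.753 regions, with 0.752 to 0.968 in genes of up to 300 kb and 0.453 in longer ones.

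The hosts with most regions were mainly long genes. Gm20388 led with 46, but its 3335 kb of intron come from a readthrough gene model that spans many other genes. Kcnma1, which encodes the pore of the large-conductance calcium-activated potassium channel, had 30 regions. Rbms3 (an RNA-binding protein) had 29, Rad51b (homologous recombination) 28, Lrmda 25 and Bmper, which encodes a secreted BMP modulator, 21. Dnm3 had 20, Zmiz1 (a coregulator of nuclear receptors) and Palld (palladin, an actin-bundling protein of myofibroblasts) 19 each, and Babam2 18. Kcnma1 had 127, 68 and 74 intronic peaks in the vehicle libraries, 25, 102 and 124 with E2, 78, 72 and 131 with both agents and 79, 49 and 92 with fulvestrant. The treatments overlapped there, and the 2 libraries that stood apart had the fewest.

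Per 100 kb of intron, among hosts with at least 5 regions, Ahdc1 was densest with 23.8. It was followed by the lincRNA 5031425E22Rik with 21.0, Gas6 (a ligand of the TAM receptor kinases) with 20.9, Htra1 (a secreted serine protease of the matrix) with 20.02 and Ddc (aromatic amino acid decarboxylase) with 19.6.

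Gene lists by function, chosen with earlier results of these data known, describe how the hosts were spread. Extracellular matrix genes were hosts in 44 of 59 cases, with 3.26 recurrent regions per 100 kb. Fbn1 (fibrillin 1) had 14, Adamts2 (procollagen N-proteinase) and Col4a2 11 each, Col8a1 7 and Fbln2 6. Fibroblast identity genes were hosts in 14 of 28 cases (2.65 per 100 kb), with 11 regions each in Nfia and Nfix, 7 in Ddr2 (a collagen receptor) and 5 in Prrx1 (a mesenchymal homeobox factor). ESR1 coregulators and partner factors were hosts in 12 of 24 cases (2.53 per 100 kb), with 19 regions in Zmiz1.

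In the TGF-beta pathway 14 of 35 genes were hosts (2.50 per 100 kb), led by Tgfbr3 (betaglycan, a coreceptor) with 17 and Smad3 (a signal transducer) with 12. In the Wnt pathway 13 of 37 were hosts (1.82 per 100 kb), with 9 in Ror2 and 7 in Ror1, both receptors of the noncanonical branch. Of genes known to respond to estrogen 8 of 24 were hosts (1.66 per 100 kb), with 6 regions in Fkbp5, 3 each in Esr1, Pgr and Rara and 2 in Greb1. Other steroid and nuclear receptor genes were hosts in 8 of 18 cases (1.56 per 100 kb). The genes that the study named as higher with E2 were hosts in 39 of 52 cases (1.80 per 100 kb), and those it named for E2 plus fulvestrant in 20 of 32 (2.24 per 100 kb). Those lists were chosen by the study partly on these libraries and are not independent evidence.

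Genes of other cell types were counted in the same way, although receptor binding in introns is not expression and cannot settle the cell type. Recurrent intronic regions were in 2 of 18 skeletal muscle genes (0.0590 per 100 kb), 4 of 24 endothelial and immune genes (0.171 per 100 kb) and 8 of 30 long neuronal genes (0.0887 per 100 kb). As shares of genes these were 11.1%, 16.7% and 26.7%, against 15.0% of all protein-coding genes, so only the density per 100 kb was lower in all 3 lists. Ttn had no intronic peak in 10 of the 12 libraries and 6 and 1 in E2 replicate 1 and fulvestrant replicate 2, and Ptprc, the pan-leukocyte gene Cd45, had none in any library. Other members of both their lists were hosts, as counted above. The neuronal genes had a median of 922 kb of intron, and all protein-coding genes with over 300 kb held 0.453 regions per 100 kb.

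**Figure D3:**
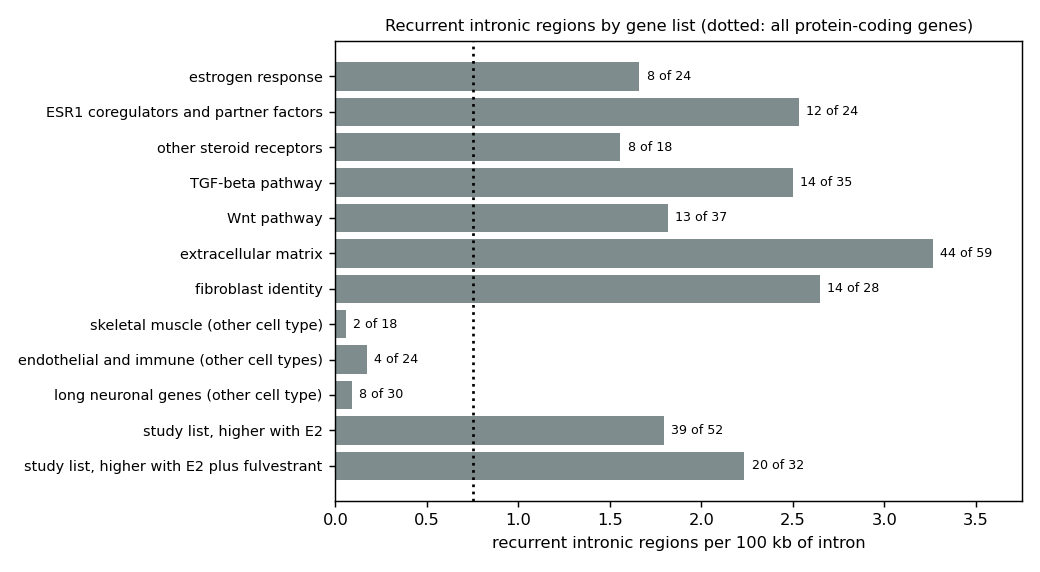
Bars show recurrent intronic regions per 100 kb of intron (horizontal axis) for each gene list (vertical axis), with the number of host genes of all list genes with introns beside each bar and a dotted line at the 0.753 of all protein-coding genes. Extracellular matrix genes reached 3.26 and skeletal muscle genes 0.0590.

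The next question was which intronic regions separated treatments by presence alone. With all 12 libraries, 206 intronic regions had a peak in all 3 E2 and in no vehicle library (0.234% of intronic regions, where the same rule took 0.344% of all regions), and 9 in the opposite direction (0.0102%, against 0.0162% of all). For E2 against E2 plus fulvestrant there were 102 (0.116%, against 0.207% of all) and 78 in the opposite direction (0.0887%, against 0.0732%). Fulvestrant against vehicle gave 96 (0.109%, against 0.144%) and 97 (0.110%, against 0.0924%). In 4 of these 6 counts the intronic share was below that over all regions. For the 6 libraries given E2 against the 6 others there were 2, in Il4ra and Kif5c (0.00227%, against 0.00394%), and 0 in the opposite direction (0 of all regions).

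These counts depended on the 2 libraries that stood apart. In the 10 others, 3190 intronic regions had a peak in both E2 and in no vehicle library, where 6.22% of all regions did, and 10 in the opposite direction (0.0358% of all). E2 against E2 plus fulvestrant gave 1426 (2.96% of all regions) and 89 (0.16%). Fulvestrant against vehicle gave 447 (0.952%) and 132 (0.278%). Libraries given E2 against those not given it gave 150 (0.281%) and 0 (0.000814%). Leaving out any library relaxes the rule, since fewer libraries must then have the peak.

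Repeats covered the summits of 27.5% of the 102 regions with E2 and not both agents. Regions that separated treatments had a median rank percentile of 53.4 for E2 and not vehicle and 58.4 for E2 and not E2 plus fulvestrant. The best ranked of the first set lay in Galnt17, a glycosyltransferase gene (chromosome 5, 131267424 to 131268629, intron 1 of 10), with an AP-1 site. Its fold enrichment was 15.8, 4.34 and 5.18 in E2 replicates 1, 2 and 3, 6.65, 6.92 and 7.06 with both agents and 2.89, 5.82 and 3.93 with fulvestrant, and no vehicle library had a peak. It also separated fulvestrant from vehicle, as did a region in Nt5c2, a cytosolic nucleotidase gene (chromosome 19, 46900713 to 46902120), with fold enrichment of 4.37, 4.39 and 4.60 with fulvestrant. The Nt5c2 region was stronger in E2 replicates 2 and 3 (7.80 and 9.07) and with both agents (7.31, 11.2 and 8.22), and had no peak in E2 replicate 1. The next of the E2 and not vehicle set lay in Arhgap25 and Ankib1.

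With E2 plus fulvestrant and not E2, the best ranked regions lay in Rbl1 (a pocket protein of the retinoblastoma family), Cacnb2 (a calcium channel subunit) and Il15ra. The Cacnb2 region (chromosome 2, 14633237 to 14634115, intron 2 of 13) had both an ERE and an AP-1 site, and its fold enrichment was 4.48, 5.76 and 7.82 with both agents and 2.92 and 4.18 in fulvestrant replicates 1 and 3, with no peak in any other library. Those present with E2 but absent with both agents lay, best ranked first, in Mnt, Afg1l and 2010111I01Rik, and none of these 3 held an ERE. Those of vehicle and not E2 lay in Slc37a2, Camk1d and Mbnl2, and those of vehicle and not fulvestrant in Etfa, Slc24a3 and Ube2e2, again with no ERE.

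The last question was whether intronic regions present in every library differed in strength. The log2 of the fold enrichment was centred on the median over the fitted regions of each library and compared with limma over all regions, intronic or not. A log2 difference here is therefore relative to the median region. Regions with a peak in only some libraries could not be fitted, so gains from no peak are outside this comparison.

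With all 12 libraries, 7816 regions were fitted and 781 were intronic. E2 against vehicle called 0 intronic regions at an adjusted p of 0.05 (0% of all regions; 71 intronic at an unadjusted p under 0.05, and 1 called with rank scores or quantile normalization), E2 against E2 plus fulvestrant 0 (0.0128%; 71) and fulvestrant against vehicle 0 (0%; 17). Libraries given E2 against those not given it called 4, all higher with E2, where 0.128% of all regions were called in either direction. That count was 11 with quantile normalization, 125 higher and 1 lower without E2 replicate 1, and 1 without any single vehicle library, E2 replicate 2, E2 plus fulvestrant replicate 2 or 3, or fulvestrant replicate 1 or 3. It was 2 without fulvestrant replicate 2. They lay in Cmklr1 (the chemerin receptor gene), D7Ertd443e, Cacna1a (a calcium channel gene) and Gm20388. The Cmklr1 region (chromosome 5, 113632574 to 113634945, intron 1 of 2), with an ERE, had fold enrichment of 4.43, 3.29 and 3.46 with vehicle and 26.9, 18.6 and 11.5 with E2. It had 9.06, 12.4 and 10.6 with both agents and 3.95, 5.13 and 3.02 with fulvestrant. The groups did not overlap there, and the log2 difference was 1.55 ± 0.169 (SE, limma adjusted p = 0.00145). The other 3 had log2 differences of 1.12 to 1.18 (limma adjusted p from 0.0202 to 0.0291).

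Without the 2 libraries that stood apart, 12343 regions were fitted, 2470 of them intronic, and more of them were called. E2 against vehicle called 218 intronic regions higher (4.25% of all regions were) and 10 lower (0.583%), and with quantile normalization in place of centring 101 higher and 2 lower. Libraries given E2 against those not given it called 419 intronic regions higher, in 357 host genes (8.16% of all regions were), and 9 lower (0.47%). The 419 were 17.0% of the fitted intronic regions. In the same fit 118 of 7510 promoter regions (1.57%) and 448 of 2150 intergenic regions (20.8%) were called higher.

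Between E2 with and without fulvestrant few regions were called. E2 against E2 plus fulvestrant called 0 intronic regions higher (0% of all regions) and 2 lower (0.0405%), with 179 intronic regions at an unadjusted p under 0.05. Fulvestrant against vehicle called 0 higher (0.0243% of all regions) and 0 lower (0%), with 138 at an unadjusted p under 0.05. That last comparison called 9 with rank scores and 4 with quantile normalization in place of centring. Over the 419 regions the median fold enrichment was 4.43, 3.65 and 3.95 for vehicle, and fulvestrant replicates 1 and 3 had 4.23 and 4.03. It was 11.9 and 10.7 in E2 replicates 2 and 3 and 6.44, 9.35 and 10.8 with E2 plus fulvestrant. Over all 2470 it was 3.13 to 3.59 with vehicle, 4.81 and 5.40 with E2, 3.42 to 4.48 with both agents and 3.47 and 3.55 with fulvestrant.

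With all 12 libraries, 66 fitted intronic regions had an ERE, of which 2 were called higher and 64 were not called. In the fit without the 2 libraries that stood apart, most fitted intronic regions with an ERE were among those higher with E2. Low ERE shares were among the measures by which those 2 libraries stood apart. Of the 419, 152 (36.3%) had an ERE at the summit, against 30 of 2042 regions (1.47%) called neither way and 0 of the 9 lower. Put the other way, 182 of the 2470 regions had an ERE and 152 of these 182 were among the 419. This was not particular to introns. Of fitted regions with an ERE, 125 of 162 intergenic and 47 of 119 promoter regions were called higher as well. AP-1 sites were at 16.5% of the 419 and 9.70% of those called neither way. By size of the log2 difference the ERE share was 0.521% from −0.5 to 0, 1.94% from 0 to 0.5, 25.3% from 0.5 to 1 and 52.5% above 1. The AP-1 share over the same bins was 7.19%, 11.6%, 14.5% and 22.0%. The lowest bin, below −0.5, held only 15 regions. These are descriptions of the sequence under the called regions, with no test.

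**Figure D4:**
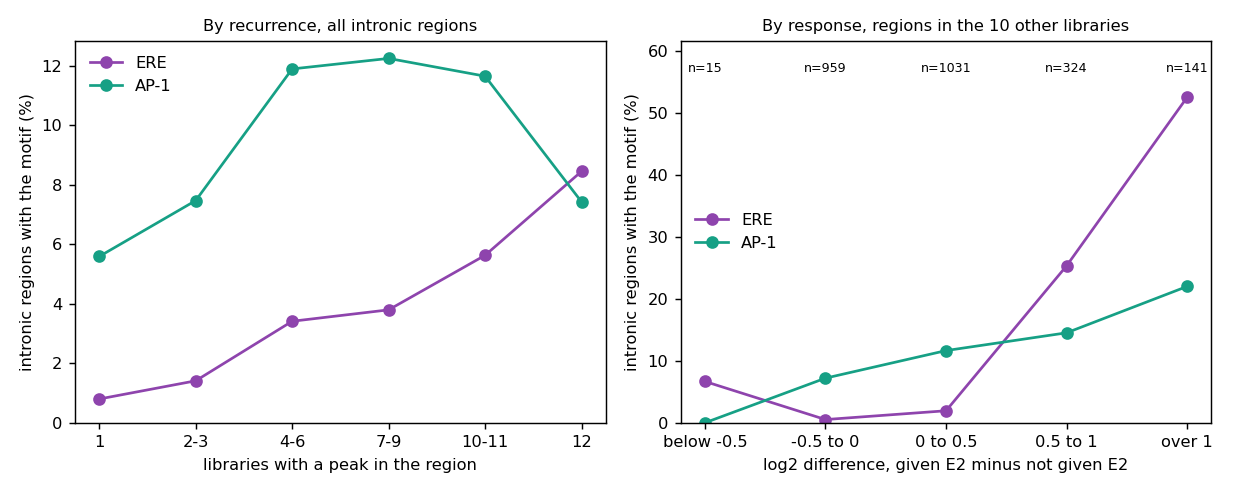
The percent of intronic regions with an ERE (purple) or an AP-1 site (green) at the summit is plotted against the number of libraries with a peak in the region (left) and against the log2 difference between libraries given and not given E2 among the 10 other libraries (right, with the number of regions per bin). The ERE share reached 8.45% in regions of all 12 libraries and 52.5% above a log2 difference of 1.

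The intronic regions called most firmly, apart from one in Setbp1, lay in Lnx2, Rbks, Dtnb, Gm12248 and Col24a1. In Lnx2, which encodes a ubiquitin ligase that binds Numb, the region (chromosome 5, 147036314 to 147037543, intron 2 of 9) had fold enrichment of 5.15, 3.61 and 3.87 with vehicle, 22.0 and 20.4 in E2 replicates 2 and 3, 9.41, 14.8 and 19.0 with both agents and 5.01 and 4.39 in fulvestrant replicates 1 and 3. Among the libraries fitted, all 5 given E2 lay above all 5 others, and the log2 difference was 1.65 ± 0.170 (SE, limma adjusted p = 8.59e-07). In Dtnb, the gene of dystrobrevin beta, the region (chromosome 12, 3728940 to 3730664) had an ERE and an AP-1 site and a log2 difference of 1.47 ± 0.159 (SE, limma adjusted p = 1.41e-06). The Rbks region had an AP-1 site and no ERE (log2 1.60), the Gm12248 region had an ERE (log2 1.55), and the Col24a1 region, in a collagen gene, had neither (log2 1.44).

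The 2 regions lower with E2 than with E2 plus fulvestrant lay in Pkp2 (plakophilin 2, a desmosome protein) and Sybu (syntabulin). Pkp2 (chromosome 16, 16252893 to 16254473, intron 6 of 12) had fold enrichment of 3.35, 2.46 and 3.52 with vehicle, 5.43 and 3.36 with E2, 9.85, 9.80 and 12.5 with both agents and 7.10 and 5.64 with fulvestrant. Among the libraries fitted, those with fulvestrant alone thus lay above vehicle and the combination above all others (log2 difference −1.69 ± 0.253, SE, limma adjusted p = 0.00254). Sybu (chromosome 15, 44698830 to 44699766, intron 4 of 7), with an ERE, had 3.81, 2.88 and 3.29 with vehicle, 8.42 and 8.38 with E2, 11.9, 17.7 and 20.2 with both agents and 7.60 and 9.10 with fulvestrant (log2 difference −1.33 ± 0.230, SE, limma adjusted p = 0.0136).

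The regions called lower in libraries given E2 were weak. They included regions in Trps1, Triobp, Afap1, Ppfibp2 and Ttc7, with log2 differences of −0.55 to −0.70 (limma adjusted p from 0.00908 to 0.0216) and no ERE. Another, in Gm26870, was 100% repeat-masked, with fold enrichment of 1.22 to 1.36 in all 10 libraries. Its mean fold was 1.31 with vehicle, 1.29 with E2, 1.32 with both agents and 1.26 with fulvestrant, so that it was lower only relative to the median region of each library. Relative to vehicle alone, E2 also called regions in Col14a1, Gm12339 and Gm12160 lower (log2 −0.81 to −0.93).

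**Figure D5:**
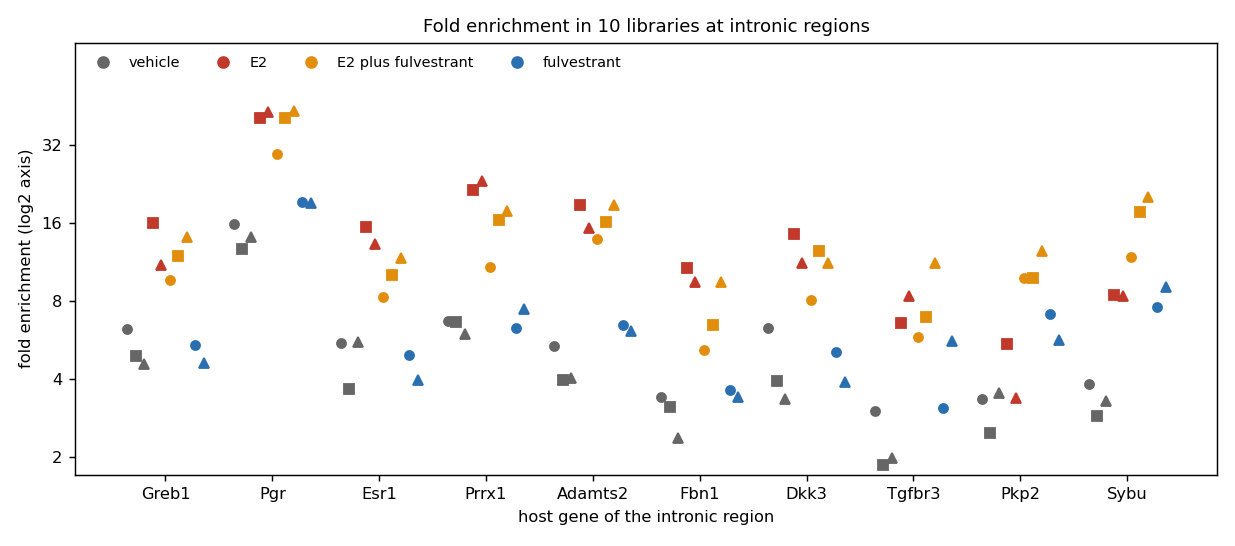
Fold enrichment over local background (vertical axis, log scale) is plotted per library for intronic regions in named hosts, with colours for treatments, circles, squares and triangles for replicates 1, 2 and 3, and only the 10 libraries used for the second fit. Libraries given E2 lie above the others in Greb1 (9.63 to 16.03 against 4.55 to 6.23), whereas in Pkp2 the E2 plus fulvestrant libraries lie highest (9.80 to 12.5).

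Genes known to respond to estrogen had 8 fitted regions, and 3 were higher in libraries given E2 (median log2 difference over the 8 of 0.04, and 0.07 over all 2470 intronic regions). In Greb1, a cofactor of ESR1 and a classic estrogen target, the region (chromosome 12, 16760253 to 16760831, intron 1 of 34, minus strand) had the exact ERE printed above. Its fold enrichment was 6.23, 4.89 and 4.55 with vehicle, 16.03 and 11.1 with E2, 9.63, 11.99 and 14.2 with both agents and 5.43 and 4.60 with fulvestrant. Among the libraries fitted, the groups did not overlap (log2 difference 1.00 ± 0.167, SE, limma adjusted p = 0.000107). In Pgr, the progesterone receptor gene, the region (chromosome 9, 8936646 to 8938693, intron 3 of 7) had 15.95, 12.8 and 14.2 with vehicle, 40.9 and 43.1 with E2, 29.6, 40.8 and 43.5 with both agents and 19.3 and 19.2 with fulvestrant (log2 difference 0.96 ± 0.164, SE, limma adjusted p = 0.000146). In Esr1 itself the region (chromosome 10, 4617353 to 4619572, intron 1 of 9), with an AP-1 site and no ERE, had 5.49, 3.66 and 5.55 with vehicle, 15.5 and 13.3 with E2, 8.33, 10.1 and 11.7 with both agents and 4.96 and 3.97 with fulvestrant (log2 difference 1.07 ± 0.166, SE, limma adjusted p = 4.8e-05). The 5 other fitted regions of this list, in Fkbp5, Rara, Bcl2 and Igf1, had log2 differences between −0.20 and 0.13 and were not called.

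Among other steroid receptors 3 of 12 fitted regions were higher (median log2 difference over the 12 of 0.05), including the one in Pgr. In the list of coregulators and partner factors 1 of 24 was higher (median 0.02).

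In the extracellular matrix list 7 of 62 regions were higher, 3 in Adamts2, 3 in Fbn1 and 1 in Col8a2. The Adamts2 region with the ERE shown (chromosome 11, 50695133 to 50696975, intron 3 of 21) had fold enrichment of 5.37, 3.96 and 4.01 with vehicle, 18.8 and 15.3 with E2, 13.9, 16.3 and 18.7 with both agents and 6.46 and 6.13 with fulvestrant (log2 difference 1.35 ± 0.158, SE, limma adjusted p = 2.67e-06). The Fbn1 region with the ERE shown had a log2 difference of 1.07 ± 0.169 (SE, limma adjusted p = 5.81e-05). Among fibroblast identity genes 1 of 30 was higher, in Prrx1 (chromosome 1, 163284265 to 163286692, intron 1 of 3), with an exact ERE and fold enrichment of 5.94 to 6.70 with vehicle, 21.5 and 23.3 with E2, 10.8 to 17.9 with both agents and 6.27 and 7.42 with fulvestrant (log2 difference 1.155 ± 0.162, SE, limma adjusted p = 1.48e-05).

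In the Wnt pathway 4 of 14 were higher, in Dkk3, Ror1, Ror2 and Sfrp1, with log2 differences of 0.70 to 1.09. In the TGF-beta pathway 2 of 26 were higher, in Tgfbr3 (log2 1.01) and Ltbp2, a latent TGF-beta binding protein gene (log2 0.60). The long neuronal genes had 2 of 6, in Opcml and Astn2, the second with an exact ERE. Muscle genes had 0 of 1 and endothelial and immune genes 0 of 2. In this comparison none of the lists had a region called lower, while E2 against vehicle called 1 lower in the matrix list, in Col14a1. Over all fitted intronic regions 17.0% were called higher, so the shares in the matrix (11.3%), fibroblast (3.33%), coregulator (4.17%) and TGF-beta (7.69%) lists were below that and those in the steroid receptor (25%), Wnt (28.6%), long neuronal (33.3%) and estrogen response (37.5%) lists above, on 6 to 14 regions each.

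Of the study's own genes for E2, 16 of 85 fitted regions (18.8%) were higher, among them regions in Kif26b, Ncam1, Aff3, Pde8b, Prkd3 and Pknox2, and of its genes for E2 plus fulvestrant 6 of 35 (17.1%), in Mb21d2, Cdc7, Ampd3, Arhgap24 and Akap13. Both shares were near the 17.0% over all fitted intronic regions. The Kif26b region, in a kinesin family gene (chromosome 1, 178640563 to 178641716, intron 2 of 14), had an exact ERE and fold enrichment of 8.12, 5.90 and 5.27 with vehicle, 26.5 and 21.8 with E2, 13.3, 19.97 and 15.5 with both agents and 8.71 and 5.80 with fulvestrant (log2 difference 1.25 ± 0.172, SE, limma adjusted p = 1.29e-05). The Ampd3 region, in the gene of an AMP deaminase (chromosome 7, 110790301 to 110793147), had 5.81, 10.0 and 6.61 with vehicle, 27.4 and 19.1 with E2, 28.4, 35.7 and 36.5 with both agents and 12.5 and 10.9 with fulvestrant (log2 difference 1.28 ± 0.191, SE, limma adjusted p = 2.89e-05).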

How the data were processed

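ESR1 ChIP-Seq peak lists of 12 libraries (3 for each of 4 treatments) were analysed. Per the study's methods and the submitters' processing notes, the authors used Trimmomatic 0.39 for trimming, Bowtie2 for alignment (build mm10) and Picard 2.21.4 to drop duplicate reads, left out mitochondrial reads, and ran MACS2 for peaks; each list belongs to 1 library. The deposited lists give, per peak, its summit, a fold enrichment over local background (a ratio) and its significance as −log10 p and −log10 q. These columns were used as the authors deposited them, and the integer score column was not. Read counts were not used here, so strength was compared as fold enrichment and not by a count model.

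Summits were placed with GENCODE vM21 basic on mm10. Where genes overlap, the host is the shortest protein-coding gene, or the shortest gene if none is protein-coding. This choice was made after seeing that readthrough models collect peaks. Per-library values were compared by two-sided exact permutation tests, adjusted over 4 comparisons (Benjamini-Hochberg), and classes of peaks by exact sign-flip permutation over 12 libraries. Regions with a peak in every fitted library were compared with limma 3.58.1 (R 4.3.3) on log2 fold centred on its median, with Benjamini-Hochberg adjustment over all fitted regions. The limma script was tested on simulated data for libraries given against not given E2. It recovered 16% of regions changed by a log2 of 0.5 and 77% of those changed by 1, with 5 false calls. The other comparisons have fewer libraries and were not simulated, so 0 calls there do not show equal strength. Other steps used Python 3.11.15, numpy 2.4.6, pandas 2.3.3 and scipy 1.17.1.

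Named were the 10 intronic regions in all 12 libraries with the lowest mean rank percentile, the 10 hosts with most recurrent regions and the 5 densest, up to 6 called regions with the lowest p per limma comparison and direction, the 3 best ranked separating regions per comparison and direction, and members of the gene lists, with at most 1 region per host in the first set. The members and lists were chosen with earlier results of these data known. Alternatives changed the q threshold, the TSS distance, the annotation, repeat-masked summits, the overlap rule, the scaling and single libraries. Results for a few genes are not reported here.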

Additional observations from a re-analysis of the deposited data

Results flagged for a closer look

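In 24 sets of 6 values, each of 1 measure in the libraries given or not given E2, 10 values lay far from the nearest of the others. For a single set chance gives this in about 1 in 20. The sets share the same 12 libraries and related measures, so they are not independent and the 10 are not separate findings. All belonged to E2 replicate 1 or fulvestrant replicate 2. The ERE share at intronic summits was 0.729% in E2 replicate 1 (nearest 2.81%) and 1.1497% in fulvestrant replicate 2 (nearest 2.05%). The AP-1 share was 2.82% (nearest 8.84%) and 4.19% (nearest 7.46%). The repeat-masked share was 63.1% (nearest 8.24%) and 29.6% (nearest 9.38%). Among the 1000 strongest intronic peaks the ERE share was 0.8% (nearest 20%) and 5% (nearest 11.6%). In E2 replicate 1, 26.7% of intronic peaks were in the first intron (nearest 30.1%), and in fulvestrant replicate 2 the median distance to a TSS was 15.7 kb (nearest 17.5 kb). These libraries also had the lowest relative depth, 39.1% and 75.8% of the median library; its part in these values was not tested.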

How the results depend on the processing

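Of 450 values of per-library measures and their alternatives, 399 kept their direction and side of the threshold, as did 44 of 46 contrasts between classes of peaks. Comparisons of 3 against 3 libraries or fewer cannot give an exact permutation p below 0.1. For them only the direction could change, so the 399 is no measure of robustness there. Of the counts, 42 of 92 for separating regions and 54 of 84 for limma calls stayed within 1.5 times. Differences below are first minus second group, and the cause of a change was not tested. With q at most 0.05, the intronic share for E2 minus E2 plus fulvestrant was 0.941 points and the rank percentile for given minus not given E2 was −3.32. With −log10 q of 10 or more, given minus not given E2 was 2090 in peak number, 10.1 points in share, −21.6 bp in width and −3.19 points in ERE share. Under that cut the share was 1.03 points for E2 minus E2 plus fulvestrant and −0.385 for fulvestrant minus vehicle, and the rank percentile was 2.34 for E2 minus vehicle, 8.53 for E2 minus E2 plus fulvestrant and 9.56 for fulvestrant minus vehicle. Without repeat-masked summits the rank percentile was 0.541 for E2 minus E2 plus fulvestrant and 0.316 for fulvestrant minus vehicle, the ERE share was 0.0058 points for E2 minus vehicle, and recurrence was −1.76 points for intronic minus intergenic peaks. With other TSS distances, the share for fulvestrant minus vehicle was −0.375 (1 kb) and −0.376 (10 kb), the ERE share for E2 minus vehicle 0.0941 (1 kb), the share for E2 minus E2 plus fulvestrant 0.201 (10 kb) and the rank percentile for given E2 −3.10 (10 kb). With all transcripts these were 0.189 for the share, E2 minus E2 plus fulvestrant, −0.295 for fulvestrant minus vehicle and −2.95 for the rank percentile. In the 1000 strongest intronic peaks the ERE share was 3.17 points for E2 minus vehicle.

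With summits matched within 250 bp, 264 regions had vehicle and not E2, 254 E2 plus fulvestrant and not E2, 152 vehicle and not fulvestrant, and 10 only libraries not given E2. With q at most 0.05 these were 2 for vehicle and not E2 and 64 for vehicle and not fulvestrant, with 1 for given E2, and without repeat-masked summits 18 for vehicle and not E2. In limma with 12 libraries, E2 against vehicle called 1 intronic region with rank scores and 1 with quantile normalization, and given E2 called 11 with quantile normalization. In the 10 other libraries, E2 against vehicle called 228, then 171 with rank scores, 103 with quantile normalization and 201 with a replicate block. Given E2 called 428, 422, 343 and 400 in that order. E2 against E2 plus fulvestrant called 2, with 1 under quantile normalization and 3 under the replicate block, and fulvestrant against vehicle called 9 with rank scores, 4 with quantile normalization and 3 with the replicate block. Rank, quantile and block fits in the 10 libraries were chosen after seeing the data. Replicate numbers share no stated origin, and same-numbered libraries had a mean correlation of 0.0323 (range −0.555 to 0.413), so they were not treated as pairs.

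Leaving out single libraries, or both that stood apart, gave these ranges. For given minus not given E2 they were 4379 to 8206 peaks, 1.24 to 2.89 points in share, −3.38 to −1.73 in rank percentile, 0.587 to 1.21 in ERE share and 1.75 to 3.77 in AP-1 share. For E2 minus vehicle they were −0.599 to 0.788 in ERE and −1.25 to 3.38 in AP-1 share. For E2 minus E2 plus fulvestrant they were −1.80 to 1.90 in share and −4.04 to 0.591 in AP-1 share. For fulvestrant minus vehicle they were −0.900 to 0.967 in share, −1.72 to 0.366 in rank percentile and −0.5 to 29.5 bp in width. Recurrence for intronic minus intergenic peaks was −1.59 points without both. Separating regions ranged from 253 to 3190 for E2 and not vehicle (9 to 151 reversed), 137 to 1426 for E2 and not E2 plus fulvestrant (86 to 544), 142 to 447 for fulvestrant and not vehicle (130 to 460) and 2 to 150 for given E2 (0 to 1). Limma calls ranged from 0 to 61 for E2 against vehicle and 1 to 126 for given E2. The lists limit strength to regions with a peak in every fitted library, and a missing peak shows only that none was called at that library's depth.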
